A study of Oryza sativa with 24 samples.

Results

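Rice genes for 6 transcription factors of the AP2/ERF family, grouped as spikelet meristem genes, were described across all groups of a study of the rice tap mutant. They were chosen by locus identifier, and all 6 were found among the 26480 loci of the count table. The genes are FZP (LOC_Os07g47330, chromosome 7), MFS1 (LOC_Os05g41760, chromosome 5), SNB (LOC_Os07g13170, chromosome 7), OsIDS1 (LOC_Os03g60430, chromosome 3), SHAT1 (LOC_Os04g55560, chromosome 4) and RSR1 (LOC_Os05g03040, chromosome 5). Each of them is among the 23658 loci that passed the filter on low counts, and the lowest count of any member in any library was 19.

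The study sequenced RNA from inflorescences of the rice line 9522, which all groups share. Its 24 libraries form 8 groups of 3: tap mutant at 2 mm and high temperature, WT (wild type) at 2 mm and high temperature, tap and WT at 3 mm and high temperature, tap and WT at 2 mm and low temperature, and tap and WT at 3 mm and low temperature. The lengths are those of the inflorescence. The sources used here do not give the degrees, the length of the treatment, the age of the plants or the mutated locus, and do not tell if the 3 libraries of a group stem from different plants. The spread behind the p-values may therefore be technical. The titles call the mutant ild and the genotype field calls it tap. The libraries held 19819257 to 21305381 counts in the high-temperature set, with TMM scaling factors of 0.905 to 0.978, and 20410115 to 20992760 counts in the low-temperature set, with factors of 1.033 to 1.075. No label says whether the high- and low-temperature sets were grown, sequenced or counted together, so temperature and handling cannot be told apart. The mutant's columns at high temperature carry a name of their own (iHT) and were taken as tap by elimination. FZP, a marker of young inflorescence, was detected in every library, though with only 19 to 21 reads in WT at 3 mm and high temperature. By itself this does not identify the tissue. Other markers of inflorescence, leaf or anther could not be paired with identifiers.

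A rice panicle forms branches, and the meristems at their flanks become spikelet meristems, each of which makes glumes and then ends as a floral meristem. FZP is an ERF factor needed for spikelet meristem identity, and fzp mutants form branches where spikelets should be. MFS1, another ERF factor, is needed for spikelet meristem determinacy and is known to promote SNB and OsIDS1. SNB and its relative OsIDS1 are AP2 factors that act together in the step from spikelet to floral meristem and in inflorescence branching, and their RNAs are targets of microRNA miR172. SHAT1 is an AP2 factor needed for the abscission zone, through which ripe grains are shed. RSR1 is an AP2 factor best known for restraining starch synthesis genes in the grain.

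The levels of the 6 genes across the 8 groups fell into a few patterns. Levels are given as CPM, read counts brought to a common library size with TMM scaling, and were not compared between genes because transcript lengths were not at hand. In RNA of whole tissue, fewer cells that express a gene and less RNA per cell cannot be told apart. FZP was highest in tap at 2 mm and low temperature and lowest in WT at 3 mm and high temperature, with group means 10.7-fold apart. MFS1 had the same highest and lowest groups, 6.96-fold apart. SNB ranged 4.82-fold, SHAT1 4.26-fold, OsIDS1 3.01-fold and RSR1 1.93-fold between their highest and lowest groups. For MFS1, SNB and SHAT1 every high-temperature library lay below every low-temperature library, at 27.1 to 54.3 against 94.0 to 250.0 CPM for MFS1, 14.8 to 45.1 against 68.3 to 95.2 CPM for SNB and 18.2 to 43.0 against 75.7 to 103.4 CPM for SHAT1. The ranges overlapped for FZP, OsIDS1 and RSR1. How many of all tested loci separated by temperature in this way was not counted. Depending on genotype and length, 34.1% to 36.5% of all tested loci were called lower at high temperature.

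**Figure D1:**
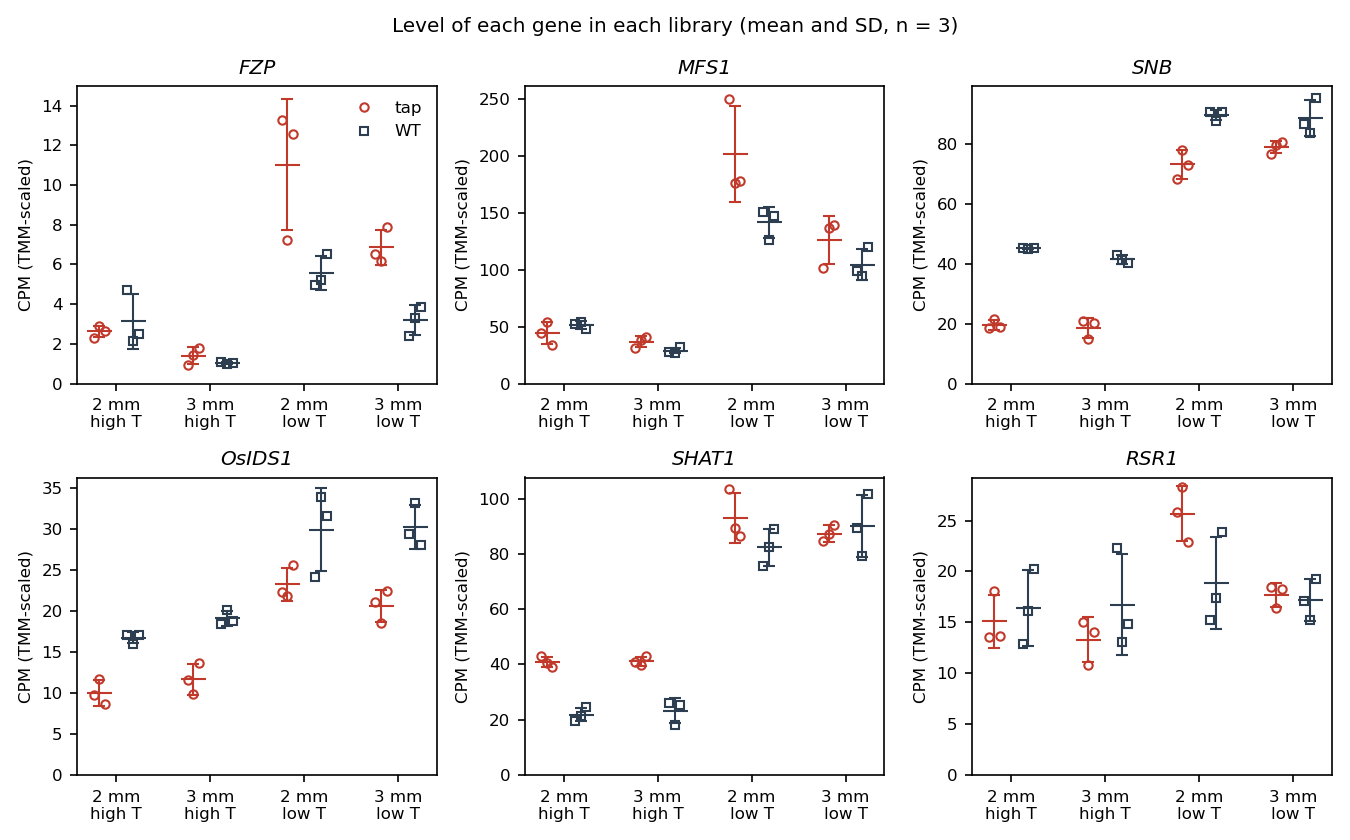
CPM of each gene (vertical axis, TMM-scaled) in each library, by inflorescence length and temperature (horizontal axis); red circles are tap, dark squares WT, and bars give the mean and SD of 3 libraries. SNB lay at 14.8 to 21.6 CPM in tap and 40.1 to 45.1 CPM in WT at high temperature, while SHAT1 lay at 39.1 to 43.0 CPM in tap and 18.2 to 26.1 CPM in WT.

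When the 8 group means of a gene were put in order, neighbouring groups often overlapped in their library values. All 7 neighbouring pairs overlapped for RSR1, so no step of its order exceeded the spread. For SNB 4 of the 7 steps separated the libraries: WT at 3 mm from tap at 3 mm, both at low temperature, tap at 2 mm and low temperature from WT at 2 mm and high temperature, WT at 2 mm from WT at 3 mm, both at high temperature, and the last WT group from tap at 2 mm and high temperature. For SHAT1 the 2 separating steps lay between the low-temperature groups and tap at high temperature, and between tap and WT at high temperature. The 4 low-temperature groups of SHAT1, with means of 82.5 to 93.0 CPM, overlapped at each step. FZP, MFS1 and OsIDS1 had 2 separating steps each. The SD of a group of 3 libraries was 0.2% to 17.6% of its mean for SNB and 3.8% to 44.0% for FZP.

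At high temperature SNB and OsIDS1 were lower and SHAT1 was higher in tap than in WT, at each length. SNB fell about 2-fold, the largest difference of the 6 genes at either length. FZP, MFS1 and RSR1 were not called at either length. The comparison asks how the mutant differs from WT in the condition that the study's title names.

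At 2 mm SNB stood at 18.6, 21.6 and 18.8 CPM in the tap libraries and at 45.1, 44.9 and 45.1 CPM in the WT libraries. The 3 tap libraries were all below the 3 WT libraries, and the fall was 2.29-fold (log2 difference -1.20 ± 0.10 SE, edgeR quasi-likelihood test with Benjamini-Hochberg adjustment over all tested loci, adjusted p = 8.6e-11). Only 3.74% of all tested loci had a lower log2 difference. At 3 mm the SNB values were 20.7, 14.8 and 20.2 CPM in tap and 42.9, 41.1 and 40.1 CPM in WT, again without overlap (log2 difference -1.15 ± 0.10, adjusted p = 1.7e-10).

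OsIDS1, the relative of SNB, was at 9.73, 11.8 and 8.64 CPM in tap and at 17.1, 16.0 and 17.1 CPM in WT at 2 mm. Every tap library lay below every WT library (log2 difference -0.74 ± 0.14, adjusted p = 9.4e-05). At 3 mm the values were 11.6, 9.88 and 13.7 CPM in tap and 18.4, 20.2 and 18.8 CPM in WT, also apart (log2 difference -0.71 ± 0.13, adjusted p = 0.00012).

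SHAT1, the abscission zone factor, went the other way. At 2 mm it was at 42.9, 40.6 and 39.1 CPM in tap and at 19.7, 21.4 and 24.5 CPM in WT, a rise of 1.87-fold (log2 difference 0.90 ± 0.12, adjusted p = 4.3e-07). At 3 mm it was at 40.8, 39.8 and 43.0 CPM in tap and at 26.1, 18.2 and 25.5 CPM in WT (log2 difference 0.82 ± 0.12, adjusted p = 1.7e-06). The groups did not overlap at either length, and 9.24% of all tested loci at 2 mm and 10.8% at 3 mm had a higher log2 difference.

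FZP was at 2.31, 2.90 and 2.67 CPM in tap and at 4.70, 2.16 and 2.52 CPM in WT at 2 mm, from 43 to 92 reads per library. The groups overlapped, and the log2 difference of -0.25 ± 0.27 (adjusted p = 0.50) was 0.19 without replicate 1 of WT, the library with 4.70 CPM. At 3 mm FZP was at 0.942, 1.44 and 1.81 CPM in tap and at 1.07, 0.988 and 1.03 CPM in WT, from 19 to 35 reads (log2 difference 0.43 ± 0.34, adjusted p = 0.34). MFS1 differed by -0.22 ± 0.16 at 2 mm and 0.35 ± 0.16 at 3 mm on the log2 scale (adjusted p = 0.28 and 0.096), the second of which reached 0.46 (adjusted p = 0.039) without replicate 1 of tap. RSR1 differed by -0.12 ± 0.19 and -0.33 ± 0.20 (adjusted p = 0.68 and 0.19).

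In number, 3 of 6 members were called at 2 mm, 1 higher and 2 lower, and the same numbers at 3 mm. Of all tested loci 37.0% were called at 2 mm, with 18.4% above and 18.6% below WT. At 3 mm 37.1% were called, with 19.3% above and 17.8% below WT, so the count by itself is close to what was seen over all loci. The median log2 difference of the members was -0.24 at 2 mm and 0.01 at 3 mm, beside 0 over all tested loci at each length.

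**Figure D2:**
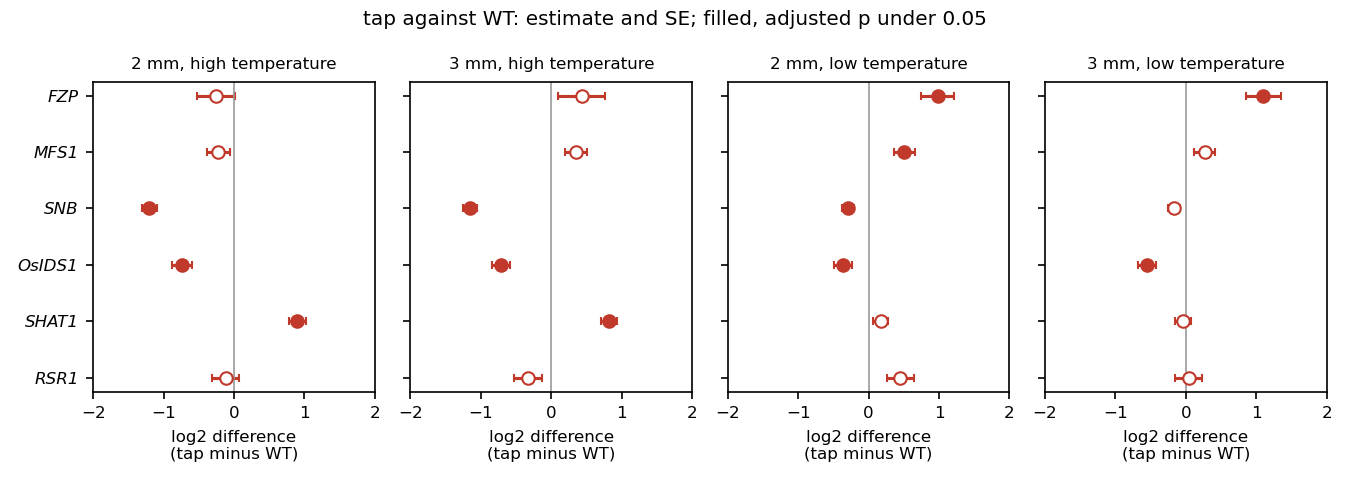
Log2 difference of tap minus WT (horizontal axis) for each gene, 1 panel per length and temperature, as the model's estimate with its SE; filled points had an adjusted p under 0.05. SNB is at -1.20 and -1.15 at high temperature and at -0.29 and -0.17 at low temperature, while FZP is at 0.98 and 1.10 at low temperature.

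At low temperature the spikelet identity gene FZP was about 2-fold higher in tap than in WT at each length, and OsIDS1 was lower at each length. MFS1 was higher and SNB lower in tap at 2 mm, by smaller amounts. SHAT1 and RSR1 were not called.

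FZP reached 13.3, 7.23 and 12.6 CPM in tap at 2 mm, against 4.97, 5.21 and 6.53 CPM in WT. Although replicate 2 of tap lay well below the other tap libraries, it was above all WT libraries (log2 difference 0.98 ± 0.23, adjusted p = 0.0038). At 3 mm FZP was at 6.55, 6.18 and 7.88 CPM in tap and at 2.39, 3.32 and 3.88 CPM in WT, a rise of 2.15-fold (log2 difference 1.10 ± 0.25, adjusted p = 0.0028). Only 3.33% of tested loci at 2 mm and 2.47% at 3 mm had a higher log2 difference than FZP.

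MFS1 stood at 250.0, 176.1 and 177.8 CPM in tap and at 150.7, 126.1 and 147.4 CPM in WT at 2 mm, without overlap (log2 difference 0.51 ± 0.15, adjusted p = 0.024). The call was lost without replicate 1 of tap, the library with 250.0 CPM (log2 difference 0.32, adjusted p = 0.19), and without replicate 2 of WT (0.43, adjusted p = 0.12). It was also lost in a model of the 6 libraries alone (adjusted p = 0.10) and in one of the low-temperature libraries alone (adjusted p = 0.062). At 3 mm MFS1 was at 101.7, 136.6 and 139.2 CPM in tap and at 98.8, 94.0 and 119.5 CPM in WT, and was not called (0.27 ± 0.15, adjusted p = 0.28).

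OsIDS1 at 3 mm was at 21.1, 18.6 and 22.4 CPM in tap and at 29.4, 33.2 and 28.1 CPM in WT, with all tap libraries lower (log2 difference -0.55 ± 0.13, adjusted p = 0.0035). At 2 mm it was at 22.4, 21.8 and 25.6 CPM in tap and at 24.2, 33.9 and 31.6 CPM in WT. There the groups overlapped (log2 difference -0.36 ± 0.13, adjusted p = 0.049), and 4 of the 6 fits that left out 1 library, those without replicates 1 and 2 of tap and 2 and 3 of WT, did not call it (adjusted p of 0.15, 0.17, 0.26 and 0.16). A model of the 6 libraries alone and one of the low-temperature libraries alone did call it (log2 difference -0.37 in each).

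SNB at 2 mm was at 68.3, 78.0 and 72.8 CPM in tap and at 90.4, 87.6 and 90.3 CPM in WT. The groups were apart, but the difference was small (log2 difference -0.29 ± 0.09, adjusted p = 0.031). Of the 6 fits that left out 1 library, 5 did not call it, all but the fit without replicate 2 of tap, with adjusted p of 0.062 to 0.15. The models of the 6 libraries alone and of the low-temperature libraries alone did call it (log2 difference -0.30 in each). At 3 mm SNB was at 76.6, 79.6 and 80.5 CPM in tap and at 86.6, 83.6 and 95.2 CPM in WT, also apart but not called (-0.17 ± 0.09, adjusted p = 0.28). SHAT1 had log2 differences of 0.17 ± 0.11 and -0.04 ± 0.11 at 2 mm and 3 mm (adjusted p = 0.32 and 0.86). RSR1 had 0.45 ± 0.19 and 0.04 ± 0.19 (adjusted p = 0.12 and 0.92). Without replicate 3 of WT the RSR1 difference at 2 mm was 0.65 (adjusted p = 0.028).

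Of the members, 4 of 6 were called at 2 mm, 2 in each direction, where 15.0% of all tested loci were called, with 7.67% above and 7.30% below WT. At 3 mm 2 of 6 were called, 1 in each direction, beside 11.7% of all loci, with 5.52% above and 6.18% below WT. The median log2 difference of the members was 0.31 at 2 mm, beside 0.01 over all loci, and 0 at 3 mm.

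Whether the difference of tap and WT depended on temperature was tested as an interaction, the log2 difference of tap and WT at high temperature minus that at low temperature. The differences of SNB and SHAT1 depended on temperature at each length, in opposite directions. For FZP and MFS1 the dependence was called at 2 mm. OsIDS1 and RSR1 were not called at either length.

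For SNB the interaction was -0.90 ± 0.14 at 2 mm (adjusted p = 1.1e-05) and -0.99 ± 0.14 at 3 mm (adjusted p = 3.5e-06), so that the deficit in tap was larger at high temperature. For SHAT1 it was 0.73 ± 0.16 at 2 mm (adjusted p = 0.001) and 0.87 ± 0.16 at 3 mm (adjusted p = 0.00017). These calls held in all fits that left out 1 library.

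The interaction of FZP was -1.24 ± 0.36 at 2 mm (adjusted p = 0.011) and -0.67 ± 0.43 at 3 mm (adjusted p = 0.26). Without replicate 1 of WT at 2 mm and high temperature the first of these was -0.78 (adjusted p = 0.11), so its call rested on that library. MFS1 had -0.73 ± 0.22 at 2 mm (adjusted p = 0.015) and 0.08 ± 0.22 at 3 mm (adjusted p = 0.85). Its call at 2 mm was lost without replicate 3 of tap at high temperature (-0.55, adjusted p = 0.058) and without replicate 1 of tap at low temperature (-0.55, adjusted p = 0.052).

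OsIDS1, lower in tap at both temperatures, had interactions of -0.37 ± 0.19 and -0.16 ± 0.18 (adjusted p = 0.14 and 0.57). RSR1 had -0.56 ± 0.27 and -0.37 ± 0.27 (adjusted p = 0.12 and 0.33), and -0.77 (adjusted p = 0.034) at 2 mm without replicate 3 of WT at low temperature. In all, 4 of 6 members were called at 2 mm, 1 positive and 3 negative, beside 26.8% of all tested loci, 13.2% positive and 13.6% negative. At 3 mm 2 of 6 were called, 1 in each direction, beside 26.4% of all loci, with 14.3% positive and 12% negative.

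Because SNB and SHAT1 moved in opposite directions, the ratio of SHAT1 to SNB reads within a library, which no scaling between libraries can change, was also taken. This pair was chosen after its values were seen, and the ratio is given without a test. It depends on the lengths of the RNAs, so only its differences between libraries can be read. At 2 mm and high temperature the ratio was 2.30, 1.88 and 2.08 in tap and 0.437, 0.477 and 0.542 in WT. At 3 mm and high temperature it was 1.97, 2.69 and 2.12 in tap and 0.609, 0.443 and 0.636 in WT. Each tap library was above every WT library at high temperature. At low temperature the ratio was 1.51, 1.15 and 1.19 in tap and 0.838, 0.943 and 0.986 in WT at 2 mm, and 1.10, 1.10 and 1.12 in tap and 1.03, 0.948 and 1.07 in WT at 3 mm. The groups were apart at each length there too, but lay closer together.

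**Figure D3:**
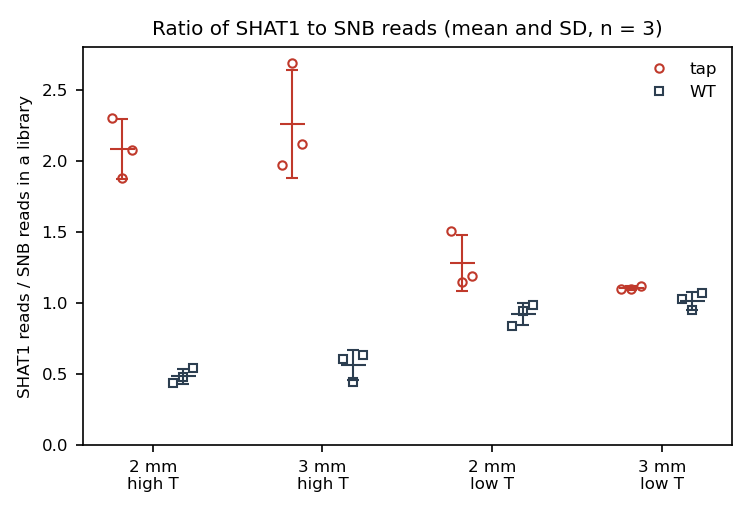
SHAT1 reads divided by SNB reads in each library (vertical axis), by length and temperature (horizontal axis); red circles are tap, dark squares WT, and bars give the mean and SD of 3 libraries. At high temperature the means were 2.09 and 2.26 in tap and 0.485 and 0.563 in WT, and at low temperature 1.28 and 1.11 in tap and 0.922 and 1.02 in WT, at 2 mm and 3 mm in each case.

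Between temperatures, 5 of the 6 genes were lower at high than at low temperature in each genotype and at each length. RSR1 was the exception and fell in tap at 2 mm only among its 4 comparisons. These comparisons share libraries with those of tap and WT above, and any difference in how the sets were handled enters all of them. The rows of the table also appear selected by their low-temperature counts, which bears on the shares over all loci given further down. Each member was counted in every library. The library totals and scaling factors behind its values were taken from the selected rows, however. How far this moves the differences between temperatures was not tested.

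FZP fell 4.20-fold in tap at 2 mm (log2 difference -2.07 ± 0.25, adjusted p = 2.6e-08) and 4.92-fold at 3 mm (-2.30 ± 0.28, adjusted p = 2.1e-08). In WT it fell 1.78-fold at 2 mm (-0.83 ± 0.25, adjusted p = 0.0053) and 3.09-fold at 3 mm (-1.63 ± 0.31, adjusted p = 3e-05). With 1 library left out, the difference in WT at 2 mm ranged from -1.26 to -0.63 and stayed called. A test against a 1.5-fold change did not call it (adjusted p = 0.16). MFS1 averaged 44.1 ± 9.73 CPM at high and 201.3 ± 42.2 CPM at low temperature in tap at 2 mm (SD, n = 3 each), a log2 difference of -2.19 ± 0.16 SE. Its other log2 differences were -1.77 ± 0.16 in tap at 3 mm, -1.46 ± 0.16 in WT at 2 mm and -1.85 ± 0.16 in WT at 3 mm, with adjusted p of 1.9e-08 or lower.

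SNB had log2 differences of -1.89 ± 0.10 and -2.08 ± 0.10 in tap at 2 mm and 3 mm, and of -0.99 ± 0.10 and -1.10 ± 0.10 in WT. For SHAT1 they were -1.19 ± 0.11 and -1.09 ± 0.11 in tap, and -1.92 ± 0.12 and -1.95 ± 0.12 in WT. The adjusted p of these 8 differences were 8.8e-10 or lower. The interaction above is the test of these unequal falls in tap and WT. For OsIDS1 they were -1.21 ± 0.13 and -0.82 ± 0.13 in tap, and -0.84 ± 0.13 and -0.66 ± 0.13 in WT (adjusted p of 4.6e-05 or lower).

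RSR1 averaged 15.1 ± 2.58 CPM at high and 25.7 ± 2.68 CPM at low temperature in tap at 2 mm (SD, n = 3 each), a log2 difference of -0.77 ± 0.19 SE (adjusted p = 0.001). It was not called in tap at 3 mm (-0.41 ± 0.19, adjusted p = 0.064), in WT at 2 mm (-0.20 ± 0.19, adjusted p = 0.37) or in WT at 3 mm (-0.04 ± 0.19, adjusted p = 0.88). In tap at 3 mm the libraries of the temperatures did not overlap, and RSR1 was called there by DESeq2 (adjusted p = 0.034), with RLE normalization (0.044), in a model of the 6 libraries alone (0.011) and without replicate 1 of tap at high temperature (0.048).

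All 6 members were called lower in tap at 2 mm, and 5 of 6 in tap at 3 mm, WT at 2 mm and WT at 3 mm. In those comparisons 36.5%, 35.7%, 34.1% and 35.0% of all tested loci were called lower, and 69.0%, 68.6%, 63.8% and 65.8% were called in either direction. The median log2 difference of the members was -1.55, -1.43, -0.91 and -1.36, beside -0.05, -0.04, -0.05 and -0.05 over all tested loci. Falls of this size were common between temperatures. The share of tested loci with a lower log2 difference than a called member ran from 9.27% (FZP in tap at 3 mm) to 28.3% (OsIDS1 in WT at 3 mm).

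**Figure D4:**
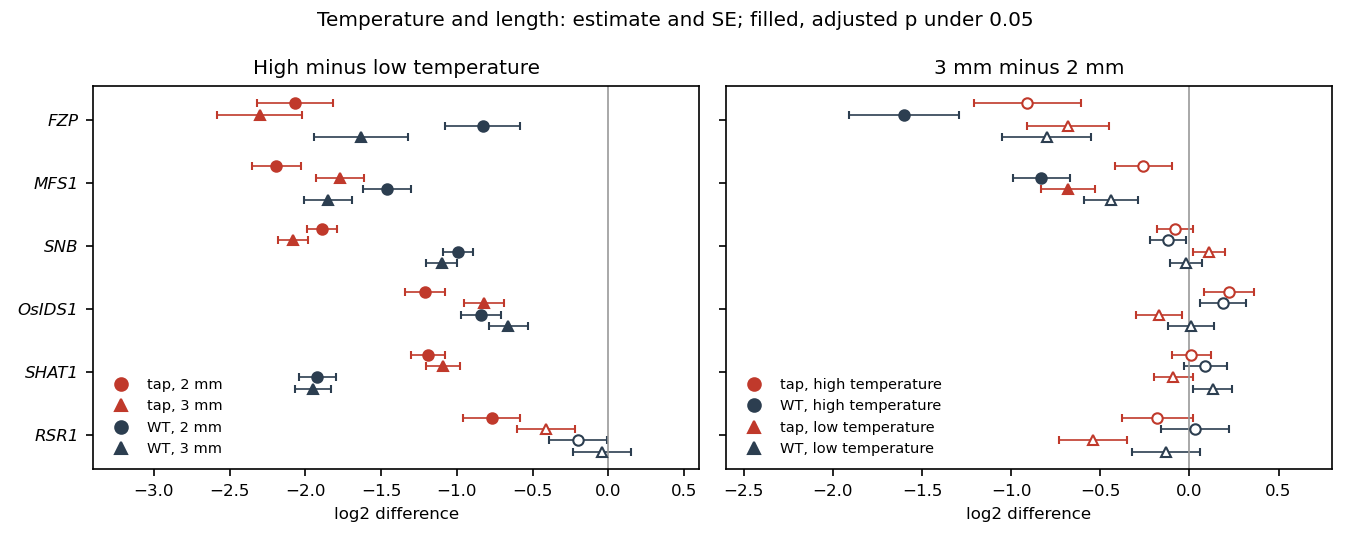
Log2 differences between high and low temperature (left) and between 3 mm and 2 mm (right) for each gene, as estimate and SE; red is tap, dark is WT, and filled points had an adjusted p under 0.05. On the left, SNB lies farther below 0 in tap (-1.89 and -2.08) than in WT (-0.99 and -1.10) and SHAT1 the reverse, and on the right only FZP and MFS1 have filled points.

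With length, the 2 ERF genes FZP and MFS1 had lower estimates at 3 mm than at 2 mm in every genotype and temperature, though few of these passed the test. The AP2 genes SNB, OsIDS1, SHAT1 and RSR1 were not called in any of the 4 comparisons.

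FZP fell 3.03-fold in WT at high temperature, to 1.07, 0.988 and 1.03 CPM at 3 mm, against 4.70, 2.16 and 2.52 CPM at 2 mm (log2 difference -1.60 ± 0.31, adjusted p = 0.0011). The call held without replicate 1 of the 2 mm libraries. In the other 3 comparisons FZP had log2 differences of -0.91 ± 0.30 in tap at high temperature (adjusted p = 0.095), -0.68 ± 0.23 in tap at low temperature (adjusted p = 0.20) and -0.80 ± 0.25 in WT at low temperature (adjusted p = 0.22). The first of these was called by DESeq2 (adjusted p = 0.049). The libraries of the 2 lengths were apart in tap and WT at high temperature and in WT at low temperature.

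MFS1 fell in WT at high temperature, to 28.0, 27.1 and 31.7 CPM at 3 mm, against 52.5, 54.3 and 47.8 CPM at 2 mm (log2 difference -0.83 ± 0.16, adjusted p = 0.0019). It also fell in tap at low temperature (-0.68 ± 0.15, adjusted p = 0.022), but this call was lost without replicate 1 of the 2 mm libraries (-0.49, adjusted p = 0.20) and without replicate 1 (-0.54, adjusted p = 0.15) or 2 (-0.74, adjusted p = 0.055) of the 3 mm libraries, and with the 6 libraries alone (adjusted p = 0.23) or the low-temperature libraries alone (adjusted p = 0.086). In tap at high temperature and WT at low temperature the log2 differences were -0.26 ± 0.16 (adjusted p = 0.41) and -0.44 ± 0.15 (adjusted p = 0.34).

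Of the AP2 genes, SNB, OsIDS1 and SHAT1 had log2 differences between -0.17 and 0.22 in all 4 comparisons. RSR1 ranged from -0.54 ± 0.19 in tap at low temperature (adjusted p = 0.24) to 0.03 ± 0.19 in WT at high temperature. The tap libraries of the 2 lengths at low temperature did not overlap, and a model of the 6 libraries alone called RSR1 there (adjusted p = 0.00058), as did a model of the low-temperature libraries (adjusted p = 0.042).

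In these comparisons 0 of 6 members were called in tap at high temperature, 2 of 6 in WT at high temperature, 1 of 6 in tap at low temperature and 0 of 6 in WT at low temperature, all lower at 3 mm. Of all tested loci 2.21%, 6.37%, 1.33% and 0.368% were called in these comparisons, and 0.774%, 3.72%, 0.774% and 0.148% were called lower. These shares are unstable. The 523 loci called in tap at high temperature were 77 to 2298 when 1 library was left out, the 1507 in WT at high temperature were 755 to 1762, the 315 in tap at low temperature were 106 to 215 and the 87 in WT at low temperature were 4 to 94. At an unadjusted p under 0.05 there were 4279, 4675, 2134 and 1653 loci. Whether the difference of tap and WT depended on length was tested in the same model, and 0 of 6 members were called at high temperature and 0 of 6 at low temperature. Of all tested loci 1.27% were called at high temperature, 301 loci that became 111 to 622 when 1 library was left out, 48 with the compared libraries alone and 600 with DESeq2. At low temperature 0.00% were called, where 622 loci had an unadjusted p under 0.05 and DESeq2 also called 0. The largest interactions with length were those of FZP (0.69 ± 0.44, adjusted p = 0.55) and MFS1 (0.57 ± 0.23, adjusted p = 0.25) at high temperature.

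How the members varied together was described by Pearson's r of log2 CPM within each temperature set of 12 libraries. These libraries share groups and lengths, so r mostly reflects group means, and no test was made. FZP and MFS1 went together, with r = 0.83 at high and 0.83 at low temperature, and over all 24 libraries with the mean of each set subtracted MFS1 ranked 22 among 16223 loci by likeness to FZP. SNB and OsIDS1 went together less closely by rank, with r = 0.91 at high and 0.56 at low temperature. By the same likeness over 24 libraries OsIDS1 ranked 739 for SNB and SNB ranked 216 for OsIDS1, so many loci were closer. SHAT1 ran against SNB at high temperature (r = -0.92) and much less at low temperature (r = -0.24). It ranked 15911 among the 16223 loci by likeness to SNB, with other loci further below. FZP ran against SNB at low temperature (r = -0.75) and not at high temperature (r = 0.01). With the mean of each group subtracted, r was 0.41 for FZP and MFS1, 0.37 for SNB and OsIDS1 and 0.15 for SNB and SHAT1, so the opposite course of SNB and SHAT1 lay between groups and not among replicates. RSR1 and SHAT1 had the highest value of that kind, 0.67.

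**Figure D5:**
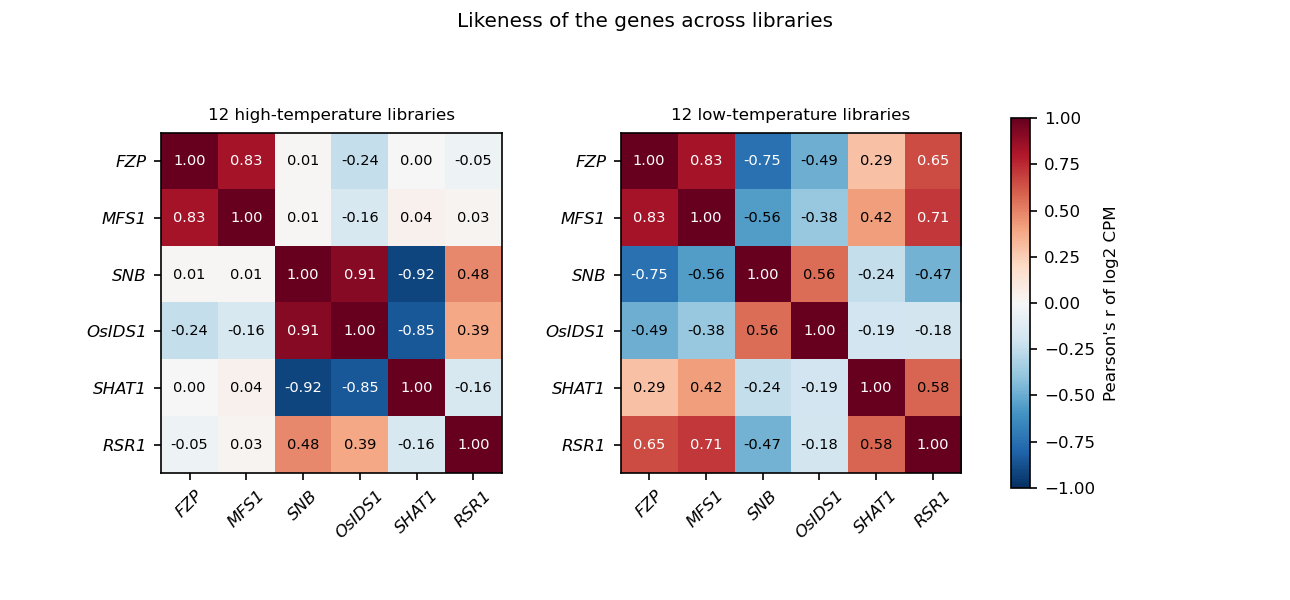
Pearson's r of log2 CPM between each pair of genes over the 12 high-temperature libraries (left) and the 12 low-temperature libraries (right), from -1 in blue to 1 in red. FZP with MFS1 is at 0.83 in each panel, and SNB with SHAT1 is at -0.92 on the left and -0.24 on the right.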

How the data were processed

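RNA was purified with RNeasy columns and made into libraries with the SMARTER mRNA-Seq chemistry, per the labels' protocols. Reads were processed with Trimmomatic, HISAT2 and HTSeq on IRGSP-1.0, per the submitters' processing notes. Versions, annotation release and strand setting: not given in the sources used here. Reads of overlapping, antisense and near-identical loci therefore cannot be told apart. The authors deposited raw read counts per locus. Of 26480 loci, 70 without high-temperature values were left out. Summed over the 12 low-temperature libraries, every locus had 10 or more counts, while 723 loci were at 0 in all high-temperature libraries, so the rows appear chosen on the low-temperature libraries.

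All tested loci were fitted in 1 model of 24 libraries with a mean per group (edgeR 4.0.16 in R 4.3.3, robust quasi-likelihood F test, TMM, filterByExpr), which left 23658 loci and 16 residual degrees of freedom. P-values were adjusted by the Benjamini-Hochberg method over all tested loci in each of 16 contrasts, and loci were called at an adjusted p under 0.05. SE is the log2 difference divided by the root of F. The model was tested on simulated data. Alternatives were RLE normalization, no filter, DESeq2 1.42.0, the compared libraries alone, each temperature alone, a block by replicate number, leaving out each library and a test against a 1.5-fold change.

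Replicate numbers were not taken as pairs, since in 0 of 12 comparisons did every same-numbered pair deviate together (r above 0.1). For tap against WT at high temperature, r of replicates 1 and 2 was 0.24 and 0.26 at 2 mm and 0.23 and 0.22 at 3 mm. It was lower for replicate 3, so this rule cannot tell whether some of the libraries were paired. Members and lists were chosen with earlier results of these data known. All members were named, and for each member the 2 loci of at least 5 CPM most like it (Pearson's r of log2 CPM with prior count 2, mean of each temperature set subtracted). Member names come with the list of members. The RefSeq table matched 0 identifiers of the count table and holds FZP, SHAT1 and RSR1 on the same chromosomes, while its entries called mfs1 and OsIDS1 lie on chromosomes 1 and 12 and were taken as other genes. Other spikelet meristem genes and tissue markers could therefore not be paired and were not tested. Between libraries of a group the counts differed by more than sampling noise (chi-square per degree of freedom of 3.39 to 30.78 over loci), so that the spread between libraries, beyond counting error, enters each SE.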

Additional observations from a re-analysis of the deposited data

Results flagged for a closer look

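The difference of tap and WT differed between the temperatures, by the interaction term of edgeR's model, for 4 genes at 2 mm and 2 genes at 3 mm. Of all tested loci 26.8% were called in this way at 2 mm and 26.4% at 3 mm. For SNB the interaction was -0.90 at 2 mm and -0.99 at 3 mm on the log2 scale. In tap SNB averaged 19.7 ± 1.66 CPM at high and 73.0 ± 4.84 CPM at low temperature at 2 mm (SD, n = 3 each), and in WT 45.1 ± 0.0929 and 89.5 ± 1.58 CPM. SHAT1 had interactions of 0.73 at 2 mm and 0.87 at 3 mm. Its means at 2 mm were 40.9 ± 1.92 and 93.0 ± 9.09 CPM in tap, and 21.9 ± 2.42 and 82.5 ± 6.69 CPM in WT, at high and low temperature in each case.

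FZP had an interaction of -1.24 at 2 mm. It averaged 2.63 ± 0.297 CPM at high and 11.0 ± 3.31 CPM at low temperature in tap, and 3.13 ± 1.38 and 5.57 ± 0.840 CPM in WT. MFS1 had an interaction of -0.73 at 2 mm. It averaged 44.1 ± 9.73 and 201.3 ± 42.2 CPM in tap, and 51.5 ± 3.38 and 141.4 ± 13.4 CPM in WT. The FZP call was lost without replicate 1 of WT at high temperature (adjusted p = 0.11). The MFS1 call was lost without replicate 3 of tap at high temperature (adjusted p = 0.058) or replicate 1 of tap at low temperature (0.052). Neither gene was called at 3 mm, and whether the interactions of FZP and MFS1 differ between lengths was not tested.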

How the results depend on the processing

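Over the 16 contrasts the 6 members gave 96 log2 differences. Direction and call were unchanged for 94 of them with RLE normalization, 95 without the filter, 93 with DESeq2, 91 with the compared libraries alone, 55 of 60 with each temperature alone, 95 with the replicate block, 77 in the test against a 1.5-fold change and 665 of 720 when 1 library was left out. Each change of direction concerned a difference that was not called. Replicate numbers were not taken as pairs (r of deviations -0.22 to 0.26, and 10 of 24 libraries most like their own number). The replicate block ended the call of OsIDS1 for tap against WT at 2 mm and low temperature (adjusted p = 0.054). RSR1 was called there with the low-temperature libraries alone (adjusted p = 0.027).

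In the test against a 1.5-fold change, tap against WT at high temperature called 2 members at 2 mm (SNB and SHAT1) and 1 at 3 mm (SNB). OsIDS1 was not called at either length (adjusted p = 0.35 and 0.41), nor was SHAT1 at 3 mm (adjusted p = 0.068). At low temperature this test called 0 at 2 mm and 0 at 3 mm. The length comparisons of WT at high and tap at low temperature called 0 and 0, and the genotype by temperature interaction called 1 (SNB) at each length. DESeq2 called 1 member, FZP, between lengths in tap at high temperature. Leaving out 1 library gave 1 to 3 called members for tap against WT at 2 mm and low temperature and 0 to 1 between lengths in tap at low temperature.

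The log2 difference of SHAT1 between lengths in tap at high temperature, 0.01, was -0.01 with RLE, -0.02 without the filter, 0.00 with the compared libraries alone, -0.02 with each temperature alone, -0.01 with DESeq2 and -0.05 to 0.05 when 1 library was left out. Leaving out 1 library gave these ranges for other uncalled values. For tap against WT they were -0.43 to 0.19 (FZP) and -0.24 to 0.06 (RSR1) at 2 mm and high temperature, and -0.13 to 0.05 (SHAT1) and -0.04 to 0.13 (RSR1) at 3 mm and low temperature. RSR1 between temperatures had -0.38 to 0.01 in WT at 2 mm and -0.30 to 0.12 at 3 mm. Between lengths they were -0.19 to 0.01 (SNB, tap) and -0.23 to 0.21 (RSR1, WT) at high temperature, and -0.07 to 0.02 (SNB), -0.12 to 0.11 (OsIDS1) and -0.26 to 0.08 (RSR1) in WT at low temperature. The genotype by temperature interaction of MFS1 at 3 mm had -0.06 to 0.19. The genotype by length interaction had -0.05 to 0.14 (SNB), -0.10 to 0.13 (OsIDS1), -0.23 to 0.01 (SHAT1) and -0.39 to 0.05 (RSR1) at high and -0.11 to 0.28 (FZP) at low temperature.

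Counts over all loci depended on the model. The 1.5-fold test called 1650, 2033, 589 and 434 loci for tap against WT, where the test of no change called 8752 and 8776 at high and 3542 and 2768 at low temperature. Between temperatures it called 7532 to 8850 loci, and 1467 and 1391 loci for the interaction of genotype and temperature at 2 mm and 3 mm. For tap against WT at low temperature, the compared libraries alone called 5574 loci at 2 mm. At 3 mm the low-temperature libraries alone called 4316, and leaving out replicate 3 of tap or 1 of WT gave 1784 and 1802. Between lengths the counts were least stable, with 523 loci in tap at high temperature, against 40 with the 6 libraries alone and 1055 with DESeq2, and 315 in tap at low temperature, against 1189 with the 6 libraries alone. In WT the counts of 1507 at high and 87 at low temperature were 851 and 227 with each temperature alone. At 19 to 92 reads per library, FZP at high temperature is the least precise value.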

Other observations

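The loci whose course over the libraries was most like that of a member, with the mean of each temperature set subtracted and 16222 loci compared, carry no gene name in the files. Most like FZP were LOC_Os04g51000 on chromosome 4 (r = 0.918 over 24 libraries) and LOC_Os06g39470 on chromosome 6 (r = 0.89). LOC_Os04g51000 averaged 102.0 and 74.1 CPM in tap, against 118.0 and 70.9 CPM in WT, at high temperature. At low temperature it averaged 464.0 and 271.0 CPM in tap, against 260.0 and 173.0 CPM in WT, at 2 mm and 3 mm in each case. Its means thus followed the order seen for FZP between genotypes at low temperature and between lengths. Without subtraction of the set means LOC_Os04g51000 was also the locus most like FZP (r = 0.958). Most like MFS1 were LOC_Os01g06060 on chromosome 1 (r = 0.939) and LOC_Os06g39880 on chromosome 6 (r = 0.927).

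Most like SNB were LOC_Os05g28690 on chromosome 5 (r = 0.986) and LOC_Os01g04720 on chromosome 1 (r = 0.981). At 2 mm LOC_Os05g28690 averaged 3.52 CPM in tap libraries, against 10.6 CPM in WT libraries, at high temperature, and 3.17 CPM in tap libraries, against 4.34 CPM in WT libraries, at low temperature. It did not share the fall of SNB between temperatures, and its r without subtraction was -0.034. Most like OsIDS1 were LOC_Os01g07140 on chromosome 1 (r = 0.912) and LOC_Os10g35180 on chromosome 10 (r = 0.907). Most like SHAT1 were LOC_Os11g02020 on chromosome 11 (r = 0.957) and LOC_Os04g42590 on chromosome 4 (r = 0.934). LOC_Os04g42590 averaged 2.12 CPM in tap libraries, against 0.102 CPM in WT libraries, at 2 mm and high temperature, and 13.5 CPM in tap libraries, against 13.6 CPM in WT libraries, at 2 mm and low temperature. A mean of 0.102 CPM rests on few reads, so the size of the difference at high temperature is uncertain. Most like RSR1 were LOC_Os03g39960 on chromosome 3 (r = 0.792) and LOC_Os12g35465 on chromosome 12 (r = 0.759).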
